A study of Mus musculus with 12 samples.

Results

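The nuclear-encoded subunits of the mitochondrial respiratory chain are described here in 12 embryonic mouse hearts. Members were the genes whose symbols begin with Ndufa, Ndufb, Ndufc, Ndufs or Ndufv and a digit, with Uqcr, with Cox4 to Cox8 or with Atp5, together with Sdha, Sdhb, Sdhc, Sdhd and Cyc1. Of 89 symbols of that form, 4 pseudogene symbols were left out, as were Cox7b2 and Cox8c, whose means over the 12 libraries, 0.144 and 0 CPM (counts scaled to library size), lay under 1 CPM. The remaining 83 genes, of 45664 in the table, comprised 37 of complex I, 4 of complex II, 9 of complex III, 16 of complex IV and 17 of complex V. Complexes were assigned by symbol, so that Ndufa4 and Ndufa4l2 are counted with complex I and Atp5sl with complex V. All 83 were among the 20691 genes that passed the low-count filter. The lowest members above the minimum were Cox4i2 (4.70 CPM), Cox6b2 (4.81 CPM), Ndufa4l2 (9.36 CPM) and Atp5s (9.46 CPM).

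Whole-heart RNA was sequenced from single mouse embryos in 4 groups of 3: Ino80-disrupted (KO) and wild-type (WT) hearts at E14.5, and KO and WT hearts at E13.5, where E gives the age of the embryo in days. Tie2, an endothelial receptor gene, drove the disruption, so the deletion lay in endothelium and its descendants while a whole heart holds many other cells. Neither the strain nor which part of Ino80 was deleted is given in the sources used here. The E14.5 embryos came from litter 2 (KO replicates 2 and 4, WT replicates 8 and 7) and litter 3 (KO replicate 1, WT replicate 7.2), and all E13.5 embryos from litter 1. Stage and litter therefore cannot be told apart, while each litter held both genotypes. Below, the 3 values of a group are given in the order KO replicates 2, 4 and 1 and WT replicates 8, 7 and 7.2 at E14.5, and KO replicates 3, 5 and 7 and WT replicates 1, 4 and 2 at E13.5. In RNA of whole hearts, fewer cells of a type and less RNA per cell cannot be told apart.

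The respiratory chain passes electrons from NADH (complex I) and succinate (complex II) through coenzyme Q to complex III, and through cytochrome c to complex IV, where oxygen is reduced. Complexes I, III and IV pump protons across the inner mitochondrial membrane, and complex V, the ATP synthase, uses that gradient to make ATP. A few subunits are encoded in mitochondrial DNA and the others in the nucleus, and cardiac muscle holds heart and skeletal muscle isoforms of several complex IV subunits beside the widely expressed ones.

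Libraries held 46556032 to 182545647 counts. Ino80, the disrupted gene, encodes the ATPase of a complex that moves nucleosomes. It was read at 27.0, 29.5 and 31.9 CPM in E14.5 KO hearts, 33.9, 31.4 and 30.8 CPM in E14.5 WT hearts, 29.6, 29.6 and 29.6 CPM in E13.5 KO hearts and 36.6, 33.8 and 30.7 CPM in E13.5 WT hearts. The groups overlapped at E14.5 and did not at E13.5. Averaged over the stages, the log2 fold change of KO against WT was -0.15 ± 0.06 (SE; edgeR quasi-likelihood test, Benjamini-Hochberg adjusted p = 0.22), and the count covers the whole gene. The cardiomyocyte troponin gene Tnnt2 stood at 2992 to 4280 CPM in every heart. All 37 rows of mitochondrial DNA genes, among them the 13 mitochondrially encoded subunits, hold 0 counts in every library.

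Promoter sequence is shown for some of the genes in the stage and isoform results. Sequences of Cox6a2 and Ndufa4l2 are not shown. Cox8b and Cox7a1 are heart and skeletal muscle isoforms that were higher at E14.5. Cox8a, Cox7a2 and Cox6a1 are widely expressed counterparts, and Sdhd is a non-isoform gene called higher at E14.5. The windows are from RefSeq on GRCm38.p6, end at the base before the annotated start and are written 5′ to 3′ on the gene's strand. Capitals mark matches, on either strand, to strings bound by 2 transcription factors of respiratory genes: GCGCATGCG or GCGCANGCG for NRF1, and CCGGAAG for GABP, an ETS factor; a match on the other strand reads as the reverse complement.
Cox8b (chr7:140900447-140900646, minus strand): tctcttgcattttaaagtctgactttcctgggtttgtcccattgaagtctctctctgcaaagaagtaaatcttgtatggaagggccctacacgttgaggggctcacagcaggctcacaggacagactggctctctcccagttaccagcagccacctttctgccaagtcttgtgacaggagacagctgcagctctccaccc
Cox7a1 (chr7:30183971-30184170, plus strand): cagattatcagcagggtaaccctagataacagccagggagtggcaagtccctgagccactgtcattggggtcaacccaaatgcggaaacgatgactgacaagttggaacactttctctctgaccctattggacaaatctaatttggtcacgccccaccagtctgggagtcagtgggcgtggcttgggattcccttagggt
Cox8a (chr19:7217617-7217816, minus strand): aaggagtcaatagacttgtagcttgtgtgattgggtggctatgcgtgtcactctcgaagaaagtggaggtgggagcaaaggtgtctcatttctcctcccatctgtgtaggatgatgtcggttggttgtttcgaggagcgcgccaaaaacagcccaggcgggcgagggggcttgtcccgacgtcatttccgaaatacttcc
Cox7a2 (chr9:79759854-79760053, minus strand): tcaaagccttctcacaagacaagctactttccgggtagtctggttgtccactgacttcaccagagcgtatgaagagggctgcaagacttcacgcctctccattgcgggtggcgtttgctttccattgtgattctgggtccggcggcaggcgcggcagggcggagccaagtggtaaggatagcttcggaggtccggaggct
Cox6a1 (chr5:115348959-115349158, minus strand): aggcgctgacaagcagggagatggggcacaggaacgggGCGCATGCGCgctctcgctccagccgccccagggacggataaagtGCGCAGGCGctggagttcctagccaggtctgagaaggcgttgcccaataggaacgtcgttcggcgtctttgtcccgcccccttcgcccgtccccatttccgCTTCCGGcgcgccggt
Sdhd (chr9:50603850-50603939, minus strand): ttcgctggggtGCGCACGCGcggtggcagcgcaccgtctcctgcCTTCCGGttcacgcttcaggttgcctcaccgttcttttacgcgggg

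In the windows of Cox8b, Cox7a1 and Cox7a2 none of these strings was found. The Cox8a window holds no complete match either, although CCGGAAG lies across its end and again downstream of the start. By GENCODE M21, 23 to 27 bases of the Cox6a1, Cox7a1 and Cox7a2 windows are in the 5′ untranslated exon of the gene itself, 29 bases of the Cox6a1 window are in an exon of the long non-coding gene Gm42903, and 30 bases of the Sdhd window are in the untranslated exon of Timm8b, which is read from the other strand.

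The table of promoters (250 bases before to 50 after a start) held 65 of the 83 members. GCGCATGCG was present in 8 of these (12.3%), against 1.95% of all 27025 genes of the table. GCGCANGCG, which includes those matches, was present in 20 members (30.8%), against 7.03% of all genes, and CCGGAAG in 16 members (24.6%), against 9.93%. AAGATGGCG, a string of the factor YY1, was present in 7 members (10.8%), against 1.64%, and TCAAGGTCA, a string of the oestrogen-related receptors, in 2 (Atp5g3 and Sdhd; 3.08%), against 0.466%. A match is a string of letters in a window and not a binding site.

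Respiratory chain transcripts were abundant in all 4 groups. Together the 83 genes took 2.24 ± 0.105% of counts in E14.5 KO hearts, 2.46 ± 0.134% in E14.5 WT hearts, 2.09 ± 0.0756% in E13.5 KO hearts and 2.09 ± 0.0767% in E13.5 WT hearts (SD, n = 3). Levels were compared between genes per length, as CPM per kilobase of exon (RPKM, computed from the counts and GENCODE M21 exon lengths). The length is the union of all annotated exons of a gene and can exceed that of any single transcript. It was 5628 bases for Ndufb2 and 6443 bases for Atp5l, which lowers their RPKM. The highest member was Atp5b, the catalytic beta subunit of the F1 head, at 774 RPKM. The highest of the other complexes were Cox8a of complex IV (602 RPKM), Uqcr10, a small subunit of complex III (413 RPKM), Sdhd, a membrane anchor of complex II (287 RPKM), and Ndufa4 (203 RPKM), a small protein named for complex I and now regarded as part of complex IV. Median levels were 72.2 RPKM for complex I, 128 for complex II, 204 for complex III, 158 for complex IV and 129 for complex V. Cox6b2, an isoform known from testis, was lowest, at 4.34 RPKM.

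**Figure D1:**
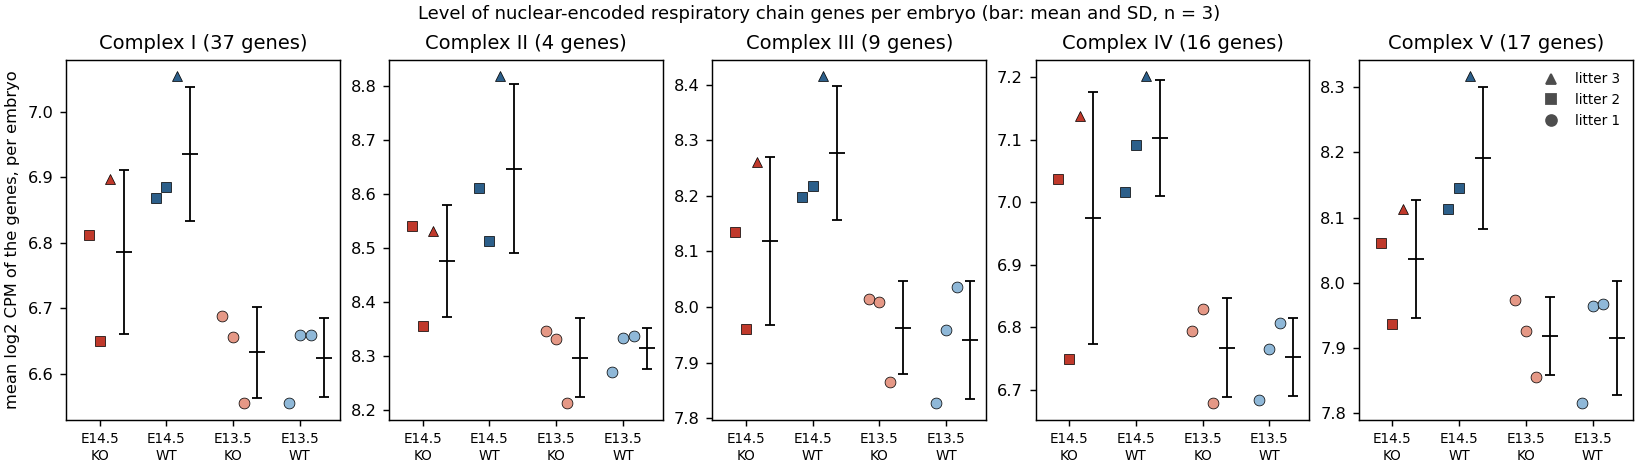
Mean log2 CPM over the genes of each complex (vertical axis, a separate scale per panel that does not start at 0) in each embryo, by group. Points are embryos, marker shape gives the litter, and the bar beside each group is the mean and SD of 3 embryos. In complex I the E14.5 KO hearts span 6.65 to 6.90 and the E14.5 WT hearts 6.87 to 7.05, while both E13.5 groups lie between 6.55 and 6.69.

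By embryo, the members tended to be high or low together, though the same counts were not made over all genes. In E14.5 hearts, KO replicate 4 had the lowest level of its group for 78 of the 83 genes and KO replicate 1 the highest for 58, while WT replicate 7.2 had the highest of its group for 74 and the highest of all 12 hearts for 68. In E13.5 hearts, KO replicate 7 was lowest of its group for 70 genes and WT replicate 1 for 66. These 2 libraries are also the deepest, with 176472494 and 182545647 counts, and the part of depth in their lower levels was not tested. In the plot of complex levels, E14.5 KO replicate 4, E13.5 KO replicate 7 and E13.5 WT replicate 1 are lowest of their groups, and E14.5 WT replicate 7.2 highest of its group, in all 5 complexes.

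The KO hearts were compared with WT hearts of the same stage to see whether disruption in the endothelium went with altered respiratory gene expression. At E14.5, 79 of the 83 members had a log2 fold change below 0 (95.2%, against 51.9% of all genes), with a median of -0.16 where that of all genes was -0.01. No member passed the test (edgeR quasi-likelihood test, Benjamini-Hochberg adjusted over 20691 genes, threshold 0.05), against 0.222% of all genes. At an unadjusted p under 0.05 there were 18 members (21.7%, against 9.59% of all genes), and DESeq2 called 0. The complexes had much the same median: -0.16 for complex I, -0.17 for complex II, -0.15 for complex III, -0.14 for complex IV and -0.16 for complex V. Without KO replicate 4 the median over the 83 genes was -0.09, without WT replicate 7.2 it was -0.08 and without KO replicate 1 it was -0.20.

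The smallest p at E14.5 belonged to Ndufa3, an accessory subunit of the membrane arm of complex I (chromosome 7, 3617373 to 3620327, plus strand, GENCODE M21). Ndufa3 stood at 59.8, 54.9 and 62.6 CPM in E14.5 KO hearts and 65.1, 73.1 and 73.9 CPM in E14.5 WT hearts. Every KO heart lay below every WT heart, and the log2 fold change was -0.26 ± 0.08 (edgeR adjusted p = 0.277). At E13.5 the same gene stood at 71.1, 60.6 and 59.4 CPM in KO hearts and 65.4, 68.6 and 62.5 CPM in WT hearts, which overlapped. Atp5e, the epsilon subunit of the F1 head (chromosome 2, 174461072 to 174464105, minus strand), stood at 197, 174 and 219 CPM in E14.5 KO hearts and 214, 247 and 247 CPM in E14.5 WT hearts. KO replicate 1 lay above WT replicate 8, so the groups overlapped, and the log2 fold change was -0.26 ± 0.09 (edgeR adjusted p = 0.3). Cox7c, a small structural subunit of complex IV, stood at 194, 170.2 and 204 CPM in E14.5 KO hearts and 215, 212 and 234 CPM in E14.5 WT hearts. Its groups did not overlap, with a log2 fold change of -0.22 ± 0.08 (edgeR adjusted p = 0.359).

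Of the 83 genes, 11 (13.3%) were lower in every E14.5 KO heart than in every E14.5 WT heart, as were 5.87% of all genes. They were Ndufa3, Ndufa4, Ndufa5, Ndufa9 and Ndufb2, counted with complex I, and Sdhd of complex II. The others were Cox6c, Cox7a2l and Cox7c of complex IV, and Atp5g2 and Atp5s of complex V. Ndufa5 and Ndufa9 are accessory subunits of the arm of complex I that reaches into the matrix, Cox7a2l helps to join complexes III and IV into supercomplexes, and Atp5g2 is 1 of 3 genes for the c-ring subunit. No member was higher in every KO heart, against 6.81% of all genes. KO replicate 4 lay below all WT hearts of its stage for 81 genes, KO replicate 2 for 49 and KO replicate 1 for 20. KO replicate 1 lay above all 3 WT hearts for 11 genes. For these counts of single hearts the share over all genes was not counted. Within litters the direction was shared: the mean over the 83 genes of log2 CPM in KO minus WT was -0.15 in litter 3 (1 heart of each genotype) and -0.15 in litter 2 (2 of each).

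The 4 members above 0 at E14.5 were Ndufa4l2 (0.17), a paralogue of Ndufa4 known to be induced in hypoxia, Cox4i2 (0.10), the isoform of the complex IV regulatory subunit known from lung and oxygen-sensing cells, Cox6b2 (0.07), and Ndufv3 (0.02), an accessory subunit beside the NADH site. None of the 4 passed the edgeR test. Cox4i2 rested on KO replicate 2, without which its log2 fold change was -0.038.

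At E13.5 the KO and WT hearts lay close together. The median log2 fold change was 0.01, against 0.00 over all genes, with 35 members below 0 (42.2%, against 49.6% of all genes). The median was -0.04 without WT replicate 1 and 0.05 without KO replicate 7. No member passed the edgeR test, against 0.106% of all genes, and 1 had an unadjusted p under 0.05, against 10.3%. DESeq2 called 0. The medians by complex were 0.02 for complex I, -0.03 for complex II, 0.01 for complex III, -0.01 for complex IV and 0.01 for complex V. There were 2 members higher in every KO heart than in every WT heart, against 8.44% of all genes, and 2 lower in every KO heart, against 11.2%. Cox4i2, the member with the unadjusted p under 0.05, stood at 4.06, 5.43 and 4.03 CPM in E13.5 KO hearts and 2.87, 3.89 and 3.30 CPM in E13.5 WT hearts. Every KO heart lay above every WT heart, and the log2 fold change was 0.42 ± 0.19 (edgeR adjusted p = 0.466).

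Averaged over both stages, 6 KO against 6 WT hearts, the median was -0.07 and 77 members lay below 0 (92.8%, against 50.7% of all genes). The median was -0.04 with either KO replicate 4 or WT replicate 7.2 of E14.5 left out. No member passed the edgeR test, against 1.42% of all genes; 6 had an unadjusted p under 0.05 (7.23%, against 14.7%), and DESeq2 called 0. Ndufb11, an X-linked accessory subunit of the membrane arm of complex I (chromosome X, 20615326 to 20617619, minus strand), came closest. It stood at 137, 129 and 155 CPM in E14.5 KO hearts, 150.3, 164 and 168 CPM in E14.5 WT hearts, 119, 129 and 115 CPM in E13.5 KO hearts and 128, 136 and 138 CPM in E13.5 WT hearts. The groups overlapped at each stage, and the averaged log2 fold change was -0.18 ± 0.05 (edgeR adjusted p = 0.141). Without E14.5 KO replicate 1, Ndufb11 passed and was the only member called lower. Next came Atp5s, a coupling factor of the ATP synthase, with -0.24 ± 0.09 (edgeR adjusted p = 0.222), followed, each with its log2 fold change and adjusted p, by Ndufa3 (-0.15, 0.244), Cox7a2l (-0.12, 0.267) and Atp5sl (-0.15, 0.269), which is named for the ATP synthase and known as an assembly factor of complex I. Atp5s stood at 10.02, 10.1 and 8.03 CPM in E14.5 KO hearts, 11.3, 10.4 and 11.9 CPM in E14.5 WT hearts, 8.39, 7.34 and 8.06 CPM in E13.5 KO hearts and 7.76, 10.2 and 9.95 CPM in E13.5 WT hearts.

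Whether the KO difference itself changed with stage was tested by subtracting the E13.5 difference from the E14.5 one. Of the 83 members, 81 lay below 0 (97.6%, against 51.4% of all genes), with a median of -0.15 where that of all genes was -0.01. No member passed the edgeR test, and neither did any other gene (0.00% of 20691); 3 members had an unadjusted p under 0.05 (3.61%, against 3.61% of all genes), and DESeq2 called 0 members and 2 genes in all. The smallest adjusted p of a member was 0.997. The median was -0.08 with either KO replicate 4 or WT replicate 7.2 of E14.5 left out.

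**Figure D2:**
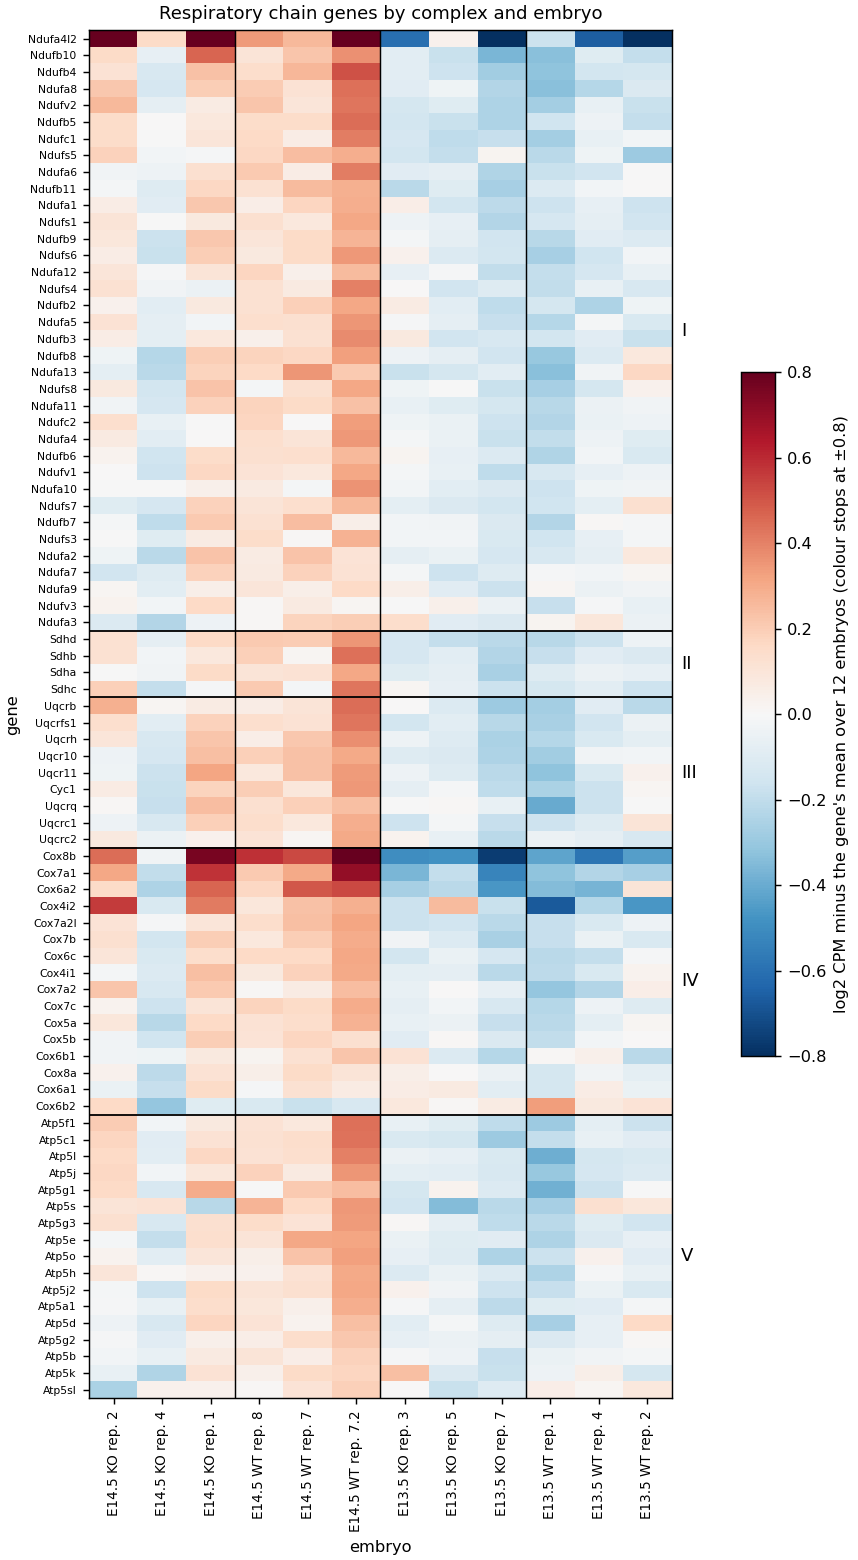
Genes of the respiratory chain, 82 of the 83 (down, by complex I to V and within a complex by the averaged stage difference) in each of the 12 hearts (across), as log2 CPM minus the gene's mean over all hearts; red is above that mean and blue below, and the colour stops at 0.8 either way. E14.5 WT replicate 7.2 is the highest heart for 68 of the 83 genes, E13.5 KO replicate 7 is the lowest for 27 and E13.5 WT replicate 1 the lowest for 41.

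Between the stages the same genes were compared to follow the chain over 1 day of heart growth. In KO hearts the median stage difference was 0.13 and 78 members lay above 0, against 50.7% of all genes. At an unadjusted p under 0.05 there were 18 (21.7%), close to the 20.1% of all genes. In 21 members (25.3%) every E14.5 KO heart lay above every E13.5 KO heart, against 12.1% of all genes, and none lay below them, against 12.8%. Cox8b alone was called higher (1 of 83, against 2.11% of all genes) and 0 lower, against 1.63%. That count was 7 without E14.5 KO replicate 4, 4 without E14.5 WT replicate 7.2 and 0 without E13.5 KO replicate 7, and DESeq2 called 7. Of all genes, 912, 1076, 66 and 1822 were called in these fits, in either direction. The median was 0.07 without E14.5 KO replicate 1 or without litter 3, and 0.06 with litter as a block.

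In WT hearts, 24 of 83 members were called higher at E14.5 (28.9%, against 2.08% of all genes called higher) and 0 lower, against 1.96%. Of the 24, 12 were of complex I, 2 of complex II, 1 of complex III, 4 of complex IV and 5 of complex V, and their fold ran between 1.22 and 2.24. The median log2 fold change of the 83 genes was 0.31, where that of all genes was 0.00, and 82 lay above 0, against 50.5% of all genes. At an unadjusted p under 0.05 there were 71 (85.5%, against 22.7%). In 69 members (83.1%) every E14.5 WT heart lay above every E13.5 WT heart, against 14.0% of all genes; 1, Cox6b2, was lower in every E14.5 WT heart, against 15.5%. The count of calls rested on single libraries, as did calls over all genes, 430 higher and 406 lower in the main fit. The count of members was 0 without E13.5 WT replicate 1, E13.5 WT replicate 4 or E14.5 WT replicate 7.2 and 3 without E13.5 WT replicate 2. Of all genes, 8, 29, 22 and 123 were called in these fits, in either direction. Without E13.5 KO replicates 3, 5 and 7 it was 11, 9 and 13 members, against 554, 451 and 497 of all genes. Without litter 3 it was 1 (95 of all genes), with litter as a block it was 5 (299), and DESeq2 called 55 (2140). The stage difference in KO minus that in WT is the same contrast as the change of the KO effect with stage, for which no gene passed. By litter, the mean log2 CPM of the 83 genes in E14.5 KO hearts exceeded that of E13.5 KO hearts by 0.27 in litter 3 and by 0.10 in litter 2. In E14.5 WT hearts it exceeded that of E13.5 WT hearts by 0.44 in litter 3 and by 0.26 in litter 2.

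Averaged over the genotypes, 6 E14.5 against 6 E13.5 hearts, 49 members were called higher (59%, against 8.26% of all genes called higher) and 0 lower, against 8.93%. At an unadjusted p under 0.05 there were 71, against 32.3% of all genes. The 49 were 23 genes of complex I, 3 of complex II, 5 of complex III, 9 of complex IV and 9 of complex V. Their fold ran between 1.13 and 2.14 with a median of 1.19, and 3 exceeded 1.5-fold: Cox8b, Ndufa4l2 and Cox7a1. By complex the median log2 fold change was 0.21, 0.25, 0.26, 0.22 and 0.22 for complexes I to V. Of the 49, 29 were called in each of the 12 fits that left out 1 library. The count was 29 without E13.5 KO replicate 7, 30 without E14.5 WT replicate 7.2, 31 without E13.5 WT replicate 1 and 22 without litter 3. Of all genes, 2368, 2299, 2602 and 2216 were called in these fits, in either direction, against 1710 higher and 1847 lower in the main fit. With litter as a block, which sets the E14.5 hearts of litter 2 against E13.5, 15 of the 49 were called, and 1684 of all genes in either direction.

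**Figure D3:**
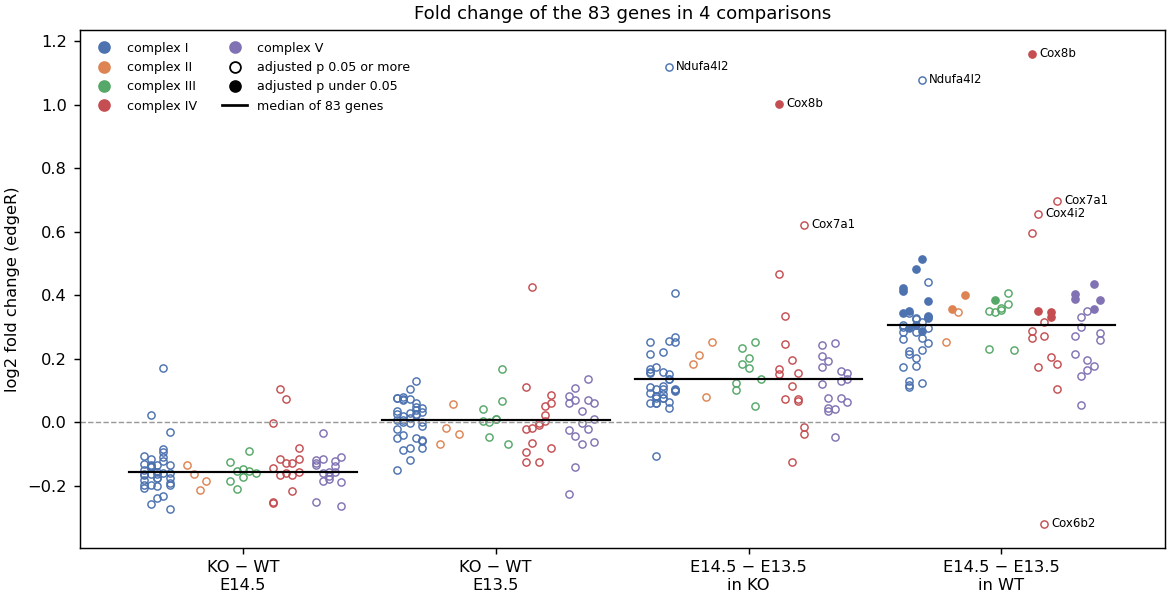
Log2 fold change (vertical axis, edgeR) of each of the 83 genes in 4 comparisons; colour gives the complex, filled points passed an adjusted p of 0.05, and the line is the median of the 83 genes. The medians are -0.16 and 0.01 for KO against WT at E14.5 and E13.5, and 0.13 and 0.31 for E14.5 against E13.5 in KO and WT hearts. KO and WT of 1 stage enter more than 1 comparison.

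In what follows, values in brackets after a log2 fold change are edgeR adjusted p-values of the averaged stage comparison. Among the core subunits of complex I, the NADH arm had 2 of 3 members called in the averaged stage comparison. The quinone arm, named for coenzyme Q, had 0 of 4 called, with a median of 0.16 (edgeR adjusted p from 0.0562 to 0.12). Ndufv2, which holds an iron-sulphur cluster beside the NADH site, rose by 0.34 ± 0.07 on the log2 scale (edgeR adjusted p = 0.00692), and Ndufs1, the largest iron-sulphur subunit, by 0.23 ± 0.05 (0.0106; 0.0507 with litter as a block). Ndufv1, which binds NADH and flavin, had 0.17 (0.0755). Of the 30 genes counted as accessory to complex I, among them Ndufa4 and Ndufa4l2, 21 rose, 7 of them also with litter as a block.

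Ndufb5, an accessory subunit of the membrane arm (chromosome 3, 32736990 to 32751566, plus strand), stood at 144, 130.4 and 138 CPM in E14.5 KO hearts, 144, 144 and 177 CPM in E14.5 WT hearts, 118, 115 and 109.9 CPM in E13.5 KO hearts and 116, 126 and 114 CPM in E13.5 WT hearts. All E14.5 hearts lay above all E13.5 hearts, and Ndufb5 rose by 0.33 ± 0.06 on the log2 scale (edgeR adjusted p = 0.00324). Ndufb4, another membrane arm subunit (chromosome 16, 37647170 to 37654453, minus strand), stood at 73.4, 62.0 and 79.5 CPM in E14.5 KO hearts, 74.6, 81.3 and 96.4 CPM in E14.5 WT hearts, 63.9, 60.3 and 55.9 CPM in E13.5 KO hearts and 54.3, 61.2 and 61.5 CPM in E13.5 WT hearts. E14.5 KO replicate 4 lay within the range of E13.5 KO hearts and the other 5 E14.5 hearts lay above all E13.5 hearts; Ndufb4 rose by 0.38 ± 0.07 (edgeR adjusted p = 0.0051). Ndufb10, a disulphide-bonded membrane arm subunit (chromosome 17, 24722060 to 24724478, minus strand), stood at 144, 124 and 179 CPM in E14.5 KO hearts, 139, 151 and 167 CPM in E14.5 WT hearts, 122, 114 and 101 CPM in E13.5 KO hearts and 102, 121 and 113 CPM in E13.5 WT hearts. All E14.5 hearts were above all E13.5 hearts, and the gene rose by 0.42 ± 0.09 (edgeR adjusted p = 0.00703). With log2 fold change and adjusted p in brackets, the accessory subunits Ndufs5 (0.28, 0.00727), Ndufa8 (0.35, 0.00786) and Ndufc1 (0.29, 0.00853) rose as well, while Ndufa3 had 0.00 (0.994).

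In complex II, which is also the succinate dehydrogenase of the citrate cycle, 3 of the 4 genes rose. Sdhd (chromosome 9, 50596357 to 50603812, minus strand), the anchor whose promoter carries a GCGCANGCG and a CCGGAAG match in the sequences above, stood at 379.9, 333 and 391 CPM in E14.5 KO hearts, 405, 402 and 448 CPM in E14.5 WT hearts, 319, 307 and 301 CPM in E13.5 KO hearts and 299.8, 310.4 and 340.1 CPM in E13.5 WT hearts. E14.5 KO replicate 4, at 333 CPM, lay between E13.5 WT replicates 4 and 2, and the other 5 E14.5 hearts lay above all E13.5 hearts. Sdhd rose by 0.33 ± 0.05 (edgeR adjusted p = 0.00261), Sdhb, the iron-sulphur subunit, by 0.28 ± 0.07 (0.0112; 0.0533 with litter as a block) and Sdha, the flavin subunit, by 0.22 ± 0.06 (0.0187; 0.0797 with the block). Sdhc, the other anchor, had 0.21 (0.0779).

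In complex III both nuclear-encoded catalytic subunits rose and neither core protein passed. Uqcrfs1, the Rieske iron-sulphur protein (chromosome 13, 30540308 to 30545362, minus strand), stood at 410.0, 353 and 425 CPM in E14.5 KO hearts, 411, 405 and 504 CPM in E14.5 WT hearts, 338, 352 and 321 CPM in E13.5 KO hearts and 312, 337 and 362 CPM in E13.5 WT hearts. E14.5 KO replicate 4 lay below E13.5 WT replicate 2, and every other E14.5 heart lay above all E13.5 hearts. Uqcrfs1 rose by 0.31 ± 0.07 (edgeR adjusted p = 0.00943) and Cyc1, cytochrome c1, by 0.24 ± 0.07 (0.0408; 0.173 with litter as a block). Cyc1 was called in 3 of 12 fits with 1 library left out. The core proteins had log2 fold changes of 0.18 for Uqcrc1 (0.0864) and 0.17 for Uqcrc2 (0.0682). Of the 5 accessory subunits 3 rose, none of them called with the block, among them Uqcrb, which binds near the quinone site, by 0.33 ± 0.08 (0.0126; 0.0594 with the block).

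In complex V the 4 peripheral stalk subunits, which hold the F1 head still against the rotor, all rose, as did 2 of 5 head subunits and 2 of 3 c-ring genes. With litter as a block, 1 of the 4 stalk subunits (Atp5j), 1 of the 2 head subunits (Atp5c1) and 0 of the 2 c-ring genes were still called. The blocked edgeR adjusted p was 0.12 for Atp5h and 0.125 for Atp5o in the stalk, and 0.0887 for Atp5g3 and 0.182 for Atp5g1 in the c-ring. Atp5h was called in 7, Atp5o in 6 and Atp5g1 in 3 of the 12 fits with 1 library left out. Atp5j, the F6 stalk subunit (chromosome 16, 84827866 to 84835625, minus strand), rose by 0.28 ± 0.06 (edgeR adjusted p = 0.00643), and Atp5f1, the b subunit of the stalk, by 0.31 ± 0.07 (0.0108; 0.0517 with litter as a block). Atp5f1 stood at 589.8, 505 and 539.8 CPM in E14.5 KO hearts, 555, 544 and 696 CPM in E14.5 WT hearts, 492, 479 and 444 CPM in E13.5 KO hearts and 418, 484 and 455 CPM in E13.5 WT hearts. All E14.5 hearts lay above all E13.5 hearts. In the head, Atp5c1, the rotating gamma subunit, rose by 0.30 ± 0.07 (0.00989) and Atp5e by 0.22 ± 0.06 (0.0246; 0.111 with the block). Atp5b, the most abundant member, stood at 3229.8, 3137 and 3444 CPM in E14.5 KO hearts, 3517, 3392 and 3726 CPM in E14.5 WT hearts, 3249.8, 3182 and 2882 CPM in E13.5 KO hearts and 3158, 3212 and 3238 CPM in E13.5 WT hearts. Its groups overlapped and its log2 fold change was 0.11 ± 0.05 (0.136).

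Of the complex IV genes without a tissue counterpart in the table, Cox7a2l (chromosome 17, 83501918 to 83517330, minus strand) stood at 233, 215 and 232 CPM in E14.5 KO hearts, 239, 256 and 269 CPM in E14.5 WT hearts, 192, 195 and 186 CPM in E13.5 KO hearts and 191, 199 and 210.3 CPM in E13.5 WT hearts. All E14.5 hearts were above all E13.5 hearts, and the gene rose by 0.30 ± 0.05 (edgeR adjusted p = 0.002), although it was also among the 11 genes lower in every E14.5 KO heart than in every E14.5 WT heart. Cox7c rose by 0.20 ± 0.06 (0.0267; 0.118 with litter as a block) and was called in 7 of 12 fits with 1 library left out.

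Complex IV holds the tissue isoforms, and the largest averaged stage differences of the chain were those of Cox8b, Cox7a1, Cox6a2 and Cox4i2 with Ndufa4l2. Cox8b, the heart and skeletal muscle isoform of the smallest complex IV subunit (chromosome 7, 140898945 to 140900446, minus strand), stood at 39.7, 28.6 and 49.3 CPM in E14.5 KO hearts, 43.8, 42.1 and 54.4 CPM in E14.5 WT hearts, 20.7, 20.9 and 17.3 CPM in E13.5 KO hearts and 21.7, 19.5 and 21.5 CPM in E13.5 WT hearts. All E14.5 hearts were above all E13.5 hearts. Cox8b rose by 1.08 ± 0.12 on the log2 scale (edgeR adjusted p = 0.000661), by 1.00 ± 0.17 in KO hearts (0.0162) and by 1.16 ± 0.17 in WT hearts (0.016). In KO hearts the edgeR call was lost without E13.5 KO replicate 7 (adjusted p = 0.0709) and without the pair of KO hearts low in macrophage markers, E14.5 replicate 2 with E13.5 replicate 5 (0.0803). In WT hearts it was lost in 3 of 12 fits with 1 library left out, those without E13.5 WT replicate 1 (0.071), E13.5 WT replicate 4 (0.0609) and E14.5 WT replicate 7.2 (0.0642). Its counterpart Cox8a, which is widely expressed, stood at 380.0, 321 and 403 CPM in E14.5 KO hearts, 383, 413 and 399 CPM in E14.5 WT hearts, 384, 373 and 359.9 CPM in E13.5 KO hearts and 336, 365 and 351 CPM in E13.5 WT hearts. The groups overlapped, with a log2 fold change of 0.08 ± 0.06 (edgeR adjusted p = 0.32).

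Cox7a1, the heart and skeletal muscle isoform of another small subunit (chromosome 7, 30184144 to 30186078, plus strand), stood at 47.4, 33.3 and 57.0 CPM in E14.5 KO hearts, 44.2, 47.2 and 62.1 CPM in E14.5 WT hearts, 29.6, 33.5 and 26.5 CPM in E13.5 KO hearts and 30.5, 32.5 and 31.8 CPM in E13.5 WT hearts. E14.5 KO replicate 4 lay just below E13.5 KO replicate 5 and the other E14.5 hearts lay above all E13.5 hearts. Cox7a1 rose by 0.66 ± 0.13 (edgeR adjusted p = 0.00594), while Cox7a2, at 336, 264 and 334 CPM in E14.5 KO hearts, 291, 302 and 342 CPM in E14.5 WT hearts, 277, 289 and 275 CPM in E13.5 KO hearts and 233, 246 and 300.2 CPM in E13.5 WT hearts, had 0.21 ± 0.08 (0.08). Cox6a2, the heart and muscle isoform of the regulatory subunit VIa (chromosome 7, 128205435 to 128206387, minus strand), stood at 129.9, 98.3 and 161 CPM in E14.5 KO hearts, 131, 165 and 168 CPM in E14.5 WT hearts, 96.8, 100.2 and 84.4 CPM in E13.5 KO hearts and 91.9, 90.003 and 125 CPM in E13.5 WT hearts. It rose by 0.53 ± 0.13 (0.0181; 0.0686 with litter as a block), with E13.5 WT replicate 2 inside the range of the E14.5 KO hearts, and Cox6a1, at 242, 222 and 280.4 CPM in E14.5 KO hearts, 250.4, 275 and 263 CPM in E14.5 WT hearts, 263, 265 and 238 CPM in E13.5 KO hearts and 228, 262 and 243 CPM in E13.5 WT hearts, had 0.03 ± 0.06 (0.742).

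Ndufa4l2 (chromosome 10, 127514967 to 127517154, plus strand) stood at 15.1, 9.41 and 16.1 CPM in E14.5 KO hearts, 10.7, 10.2 and 15.1 CPM in E14.5 WT hearts, 5.58, 8.69 and 4.58 CPM in E13.5 KO hearts and 7.53, 5.35 and 4.05 CPM in E13.5 WT hearts. All E14.5 hearts lay above all E13.5 hearts, and the gene rose by 1.10 ± 0.21 (edgeR adjusted p = 0.00699). Its counterpart Ndufa4 stood at 293, 263 and 279.8 CPM in E14.5 KO hearts, 306, 299 and 355 CPM in E14.5 WT hearts, 276, 269 and 247 CPM in E13.5 KO hearts and 244, 272 and 260.4 CPM in E13.5 WT hearts, with 0.19 ± 0.06 (0.0339; 0.138 with litter as a block). Cox4i2 (chromosome 2, 152754173 to 152765037, plus strand) stood at 6.73, 4.20 and 6.08 CPM in E14.5 KO hearts, 4.87, 5.38 and 5.55 CPM in E14.5 WT hearts, 4.06, 5.43 and 4.03 CPM in E13.5 KO hearts and 2.87, 3.89 and 3.30 CPM in E13.5 WT hearts. The stages overlapped, and Cox4i2 rose by 0.50 ± 0.13 (0.0233; 0.0857 with the block), with its call kept in 7 of 12 fits that left out 1 library. Cox6b2, at 5.33, 3.86 and 4.47 CPM in E14.5 KO hearts, 4.40, 4.22 and 4.37 CPM in E14.5 WT hearts, 5.06, 4.82 and 4.99 CPM in E13.5 KO hearts and 6.02, 5.04 and 5.14 CPM in E13.5 WT hearts, was the member below 0, with -0.22 ± 0.10 (0.129).

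**Figure D4:**
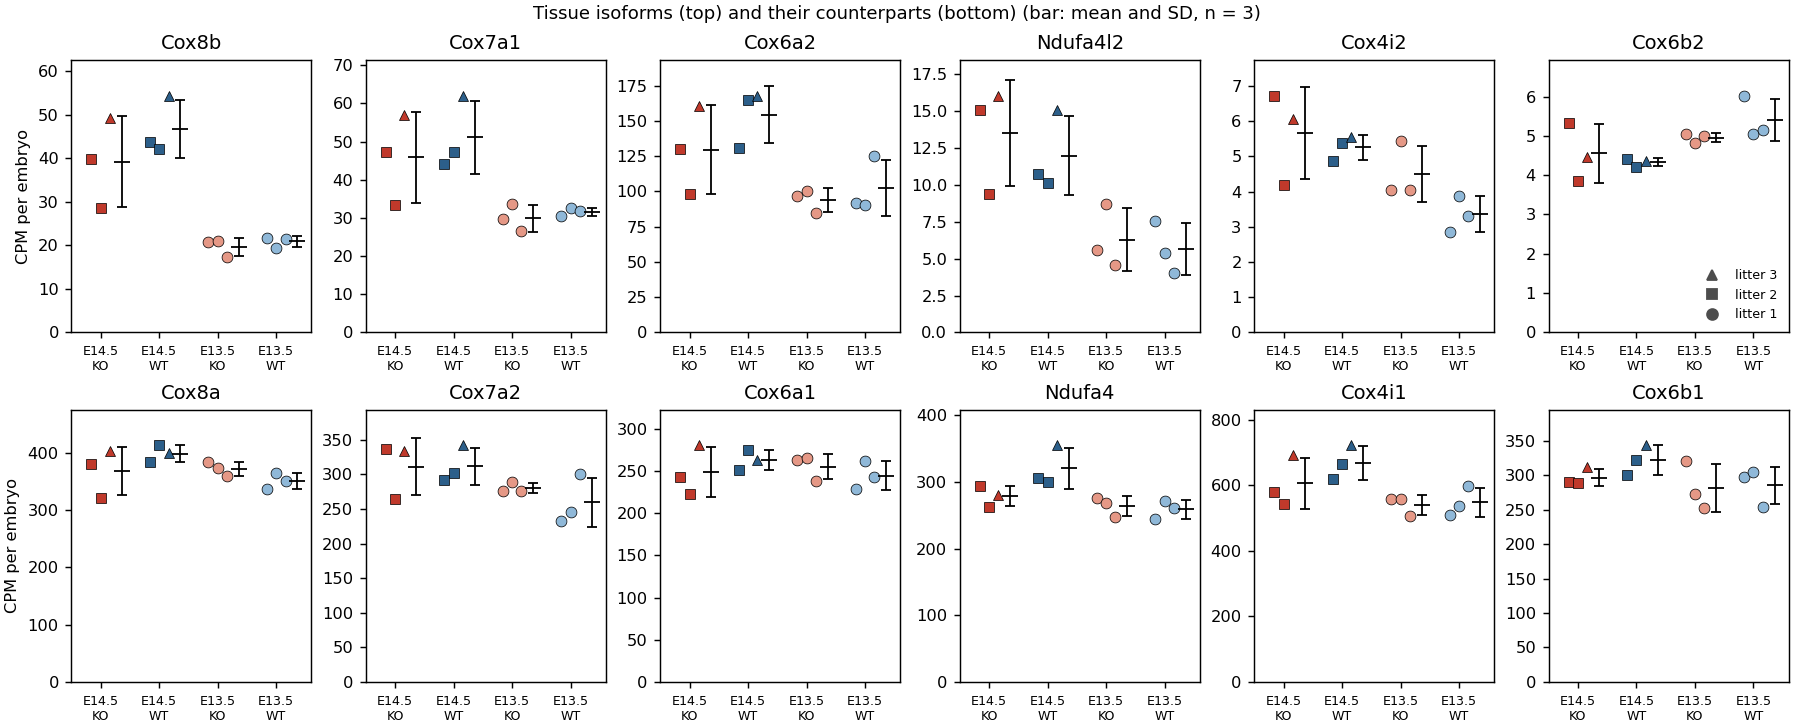
CPM (vertical axis from 0) of 6 tissue isoforms or paralogues (top) and their widely expressed counterparts (bottom) in each embryo, by group; marker shape gives the litter and the bar is the mean and SD of 3 embryos. Cox8b spans 28.6 to 54.4 CPM in E14.5 hearts and 17.3 to 21.7 CPM in E13.5 hearts, while Cox8a spans 321 to 413 CPM in E14.5 hearts and 336 to 384 CPM in E13.5 hearts.

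The ratio of each isoform to its counterpart in the same heart does not depend on library scaling. It was tested for 6 pairs by two-sided exact permutation of stage within genotype (400 arrangements, smallest p 0.005), adjusted over the pairs. The log2 ratio was higher at E14.5 for Cox8b over Cox8a by 0.98, for Ndufa4l2 over Ndufa4 by 0.92, for Cox6a2 over Cox6a1 by 0.49 and for Cox7a1 over Cox7a2 by 0.43. Each of these 4 had an exact p of 0.005, the smallest possible, and an adjusted p of 0.0075. The permutation treated embryos of the same litter as independent. No litter held hearts of both stages, so the p-values of this test cannot tell stage from litter. For Cox8b and Ndufa4l2 all 6 E14.5 hearts lay above all E13.5 hearts, and for Cox6a2 and Cox7a1 5 did. Cox6b2 over Cox6b1 was lower at E14.5, by -0.35 (exact permutation p = 0.02, adjusted 0.024), and Cox4i2 over Cox4i1 had 0.26 (exact permutation p = 0.07). Within 1 genotype, 3 hearts against 3 cannot go below an exact p of 0.1.

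Per length of exon, Cox8b made up 13.3 to 17.4% of Cox8b and Cox8a together in E14.5 KO hearts, 14.9 to 19.0% in E14.5 WT hearts, 7.62 to 8.79% in E13.5 KO hearts and 8.41 to 9.997% in E13.5 WT hearts. Cox6a2 made up 31.3 to 37.2% of its pair in E14.5 KO hearts, 35.1 to 39.7% in E14.5 WT hearts, 26.8 to 28.1% in E13.5 KO hearts and 26.2 to 34.8% in E13.5 WT hearts. Cox7a1 made up 18.2 to 23.2% in E14.5 KO hearts, 21.1 to 24.2% in E14.5 WT hearts, 14.51 to 16.99% in E13.5 KO hearts and 15.8 to 18.9% in E13.5 WT hearts. The widely expressed form was thus the larger share of each pair in every group. Ndufa4l2 (1.93 to 6.75% of its pair over all hearts), Cox4i2 (1.07 to 2.23%) and Cox6b2 (0.806 to 1.28%) were small shares.

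Between genotypes, averaged over the stages and permuted within stage, none of the 6 ratios passed. Genotypes at E14.5 were permuted across litters 2 and 3, so the pairing within litters was not used. The smallest p was that of Cox4i2 over Cox4i1, which was higher in KO hearts by 0.34 (exact permutation p = 0.025, adjusted over 6 pairs 0.15). All 3 E13.5 KO hearts lay above all E13.5 WT hearts in this ratio, and 2 of 3 E14.5 KO hearts above all E14.5 WT hearts. Without E14.5 KO replicate 4 it was 0.40 and passed. The ratios of Cox7a1, Cox6a2 and Cox8b to their counterparts had log2 differences of -0.19, -0.18 and -0.17 in KO against WT hearts (adjusted exact permutation p = 0.188 each), and in none of the 6 KO hearts did any of these 3 exceed all WT hearts of its stage.

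Other genes of the pathway came from lists of assembly factors, electron carriers, mitochondrial gene expression, transcriptional regulators, the citrate cycle and mitochondrial membranes. At E14.5, the median log2 fold change of KO against WT was below 0 in all 11 lists. It was -0.19 for 15 complex I assembly factors (14 below 0), -0.13 for 10 of complexes II and III (10 below 0), -0.14 for 17 of complex IV (16 below 0) and -0.14 for 14 citrate cycle genes (14 below 0). It was -0.10 for 80 mitochondrial ribosomal proteins (73 below 0) and -0.07 for 76 cytosolic ribosomal proteins (65 below 0), against -0.01 for all genes. No gene of these lists passed the edgeR test in a KO comparison. With litter as a block, Ppargc1a, a coactivator that drives mitochondrial gene expression, passed averaged over the stages (-0.25, adjusted p = 0.0293, against 0.11 without the block).

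With stage, averaged over the genotypes, 7 of 15 complex I assembly factors rose, 3 of them also with litter as a block. Among the 7 was Ndufaf4 (0.34, edgeR adjusted p = 0.0128, and 0.0613 with the block). Of 13 genes of coenzyme Q synthesis and cytochrome c, 6 rose, 3 of them also with the block. Among these Coq3, a methyltransferase of coenzyme Q synthesis, rose by 0.37 (0.00215) and Cycs, cytochrome c, by 0.38 (0.015; 0.0691 with litter as a block). Lyrm7, which helps to insert the Rieske protein into complex III, rose by 0.79 (0.0095). Of 14 citrate cycle genes 8 rose, and of 18 membrane transport and shape genes 9 did. Of 80 mitochondrial ribosomal proteins 9 rose and of 76 cytosolic ribosomal proteins 3, with none lower, against 8.26% of all genes called higher. Over the 11 lists 57 genes were called, of which 12 were still called with litter as a block.

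Among the 11 transcriptional regulators, 2 rose and 1 fell with stage, against 8.26% of all genes called higher and 8.93% lower. All 3 were also called with litter as a block. Ppara, a nuclear receptor that induces fatty acid oxidation, stood at 13.01, 8.08 and 14.53 CPM in E14.5 KO hearts, 11.4, 13.9 and 21.3 CPM in E14.5 WT hearts, 5.85, 6.85 and 4.45 CPM in E13.5 KO hearts and 6.68, 5.69 and 6.42 CPM in E13.5 WT hearts. All E14.5 hearts lay above all E13.5 hearts, and it rose by 1.19 ± 0.18 (edgeR adjusted p = 0.00251). Ppargc1a stood at 118, 119.8 and 139 CPM in E14.5 KO hearts, 135, 133 and 168 CPM in E14.5 WT hearts, 95.3, 96.0 and 85.9 CPM in E13.5 KO hearts and 122, 114 and 102 CPM in E13.5 WT hearts. It rose by 0.40 ± 0.07 (0.00324), with each KO group below the WT group of its stage apart from E14.5 KO replicate 1. Pprc1, a related coactivator, fell by 0.28 on the log2 scale (0.00739). Ppargc1b (0.31, 0.0522), Esrra (0.24, 0.0694), Gabpa (0.12, 0.0832), Nrf1 (-0.13, 0.0844) and Tfam, the packaging factor of mitochondrial DNA (0.12, 0.0712), did not pass.

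**Figure D5:**
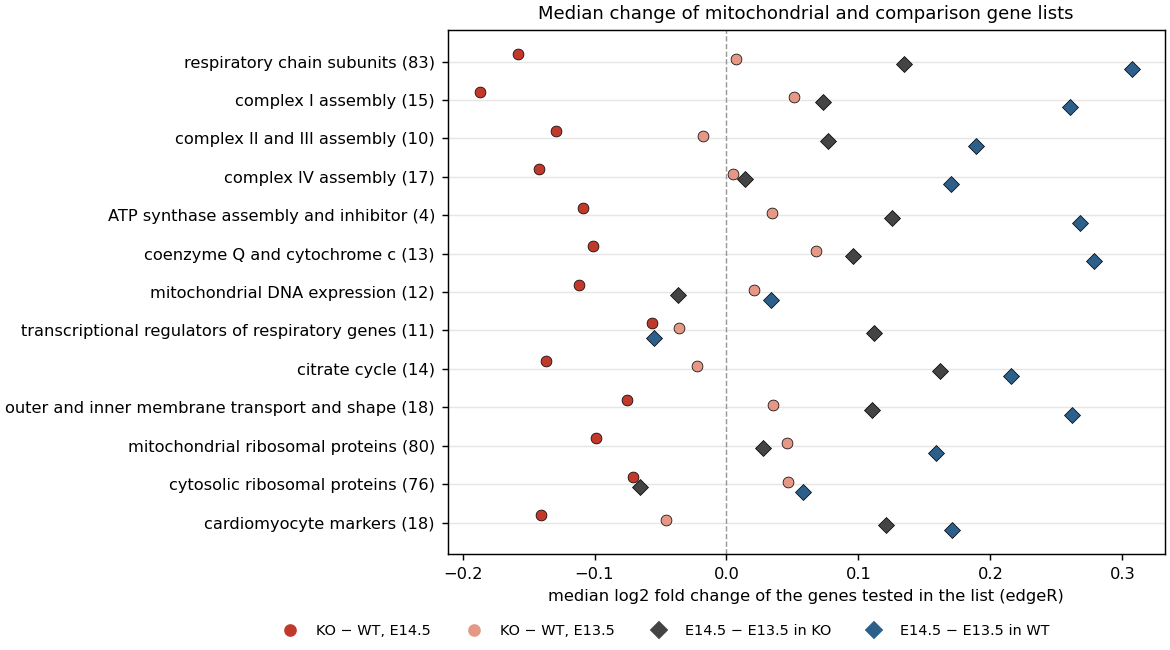
Median log2 fold change (horizontal axis, edgeR) of the genes tested in each list (number in brackets) for KO against WT at E14.5 and E13.5 (circles) and for E14.5 against E13.5 in KO and WT hearts (diamonds). In the E14.5 KO comparison all medians lie below 0, from -0.19 for complex I assembly to -0.06 for transcriptional regulators, with respiratory chain subunits at -0.16 and cardiomyocyte markers at -0.14.

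Markers of heart muscle lay on the same side of 0 as the chain at E14.5. All 18 cardiomyocyte markers had log2 fold changes below 0 in E14.5 KO against WT hearts, with a median of -0.14 and none past the test. Their summed level was 35125 to 43422 CPM in E14.5 KO hearts, 40088 to 44315 CPM in E14.5 WT hearts, 32929 to 40207 CPM in E13.5 KO hearts and 36442 to 37898 CPM in E13.5 WT hearts. With stage, averaged over the genotypes, 2 of the 18 rose and 2 fell, against 8.26% of all genes called higher and 8.93% lower. The median of the 18 was 0.12 in KO hearts and 0.17 in WT hearts. The respiratory chain had 0.13 in KO hearts and 0.31 in WT hearts. None of the 18 was at 0 in any group. The 12 markers of endothelium, where Ino80 was disrupted, had a median KO against WT log2 fold change of 0.19 at E14.5. None passed there. At E13.5 the median was -0.10 and 1 was called lower, against 0.106% of all genes called in either direction. That 1 was Pecam1, an adhesion molecule of endothelial junctions, with -0.62 at E13.5 (edgeR adjusted p = 0.00809) and -0.32 at E14.5 (0.118). Averaged over the stages 2 were called lower, Pecam1 (-0.47, edgeR adjusted p = 0.000785) and Cldn5, a tight junction protein (-0.85, 0.00602). In that comparison 1.42% of all genes were called in either direction. The median of the 12 markers was 0.045, with 7 above 0 and 5 below. The part of either list in the respiratory chain differences was not tested.

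Blood markers differed between single hearts, while the summed macrophage markers at E13.5 were lower in all 3 KO hearts than in all WT hearts. The summed level of 9 tested erythroid markers was 41925 CPM in E14.5 KO replicate 1 and 4785 to 18409 CPM in the other 11 hearts. The 14 macrophage and leukocyte markers summed to 41.2 to 146 CPM in E14.5 KO hearts, 106 to 121 CPM in E14.5 WT hearts, 42.8 to 84.1 CPM in E13.5 KO hearts and 126 to 139 CPM in E13.5 WT hearts. All 14 had log2 fold changes below 0 in E13.5 KO against WT hearts, with a median of -1.66. At E14.5 10 of them did, with a median of -0.12. No macrophage marker passed the edgeR test at either stage. The lowest sums were those of E14.5 KO replicate 2 and E13.5 KO replicate 5. Without these 2 hearts the averaged stage comparison called 26 members higher, the stage comparison called 9 in WT hearts and 0 in KO hearts, and each KO comparison called 0 members. Of all genes, these stage comparisons called 2294, 474 and 130 in that order, in either direction.

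Where genes overlap or have copies, counts are uncertain, since strand and multi-mapping settings are not given in the sources used here. By GENCODE M21, 29 of the 82 members matched there have exons that overlap another gene's, 26 of them a gene on the opposite strand. Among the genes named above these include Ndufa4l2 (with Shmt2), Cox6a2 (with Itgad), Atp5j (with Gabpa), Ndufb5 (with Mrpl47), Ndufs1 (by 489 bases with the long noncoding Ino80dos and by 9 with Eef1b2), Cox4i1 (with Emc8), Atp5f1 (with Wdr77 and Gm42890), Atp5o (with D430001F17Rik and Gm15976) and Ndufb11 (with Rbm10). The pseudogene rows left out, Atp5k-ps2, Atp5l-ps1, Atp5l-ps2 and Atp5l2-ps, held 14.53 to 121 CPM on average, so that Atp5k and Atp5l may share reads with them.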

How the data were processed

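The authors deposited raw counts for each gene symbol in 12 whole-heart libraries, prepared with a NEBNext Ultra kit per the labels' protocols; values are whole numbers and were not normalized. The submitters' processing notes list STAR 2.5.3a, featureCounts, DESeq2, DESeq and GRCm38 without role or order, and strand, multi-mapping and annotation release are not given in the sources used here. Of 45664 rows, 27 hold dates in place of symbols.

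With R 4.3.3, filterByExpr kept 20691 genes and TMM scaled the libraries. All 12 entered a single robust quasi-likelihood model in edgeR 4.0.16 with 1 mean for each group, which left 8 residual degrees of freedom and a common coefficient of biological variation of 17.1%. Two-sided F-tests gave 7 comparisons, adjusted by Benjamini-Hochberg over all genes, with a threshold of 0.05; the code was tested on simulated data. SE was taken as the size of the log2 fold change over the square root of F. CPM use library sizes scaled by TMM, and log2 CPM used a prior count of 1. Precision rests on 3 embryos for each group, at 46556032 to 182545647 counts.

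Members and lists were chosen with earlier results of these data known. Members named were those called (where over 20, the 20 with the smallest p), those with the extreme p or fold of each complex, the highest per length, and those with a listed role or isoform; members and markers singled out beyond that were chosen after their values were seen. For 1 member, counted in the totals, values of its own are not reported here. Alternatives were DESeq2 1.42.0, RLE size factors, tests with every gene kept, fits on the compared groups alone, a litter block, a Y-linked covariate, a member minimum of 5 CPM, and fits without single libraries, litter 3 or a pair of hearts low in macrophage markers. A fit with no robust prior was added after seeing the data.

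Litters named in the labels give the pairing. Residuals of hearts from different E14.5 groups correlated with a mean r of 0.0048 within litters and -0.0060 between litters. No libraries of a group were copies: the closest pair had a chi-square of 17.1 per degree of freedom.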

Additional observations from a re-analysis of the deposited data

Results flagged for a closer look

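For 3 of the 73 results looked at, the KO and WT hearts differed in opposite directions at the 2 stages, with every KO embryo on 1 side of the WT mean at E14.5 and on the other side at E13.5. All 3 are subunits of the ATP synthase. The 73 results were 61 named members with the complex means and isoform ratios, so members not named were not looked at. In the change of the KO effect with stage, 81 of the 83 members lay below 0. The share of all genes that meet this rule was not counted. For Atp5e, the mean of KO hearts minus that of WT hearts was -39.43 CPM at E14.5 and 7.583 CPM at E13.5. For Atp5j it was -24.05 CPM at E14.5 and 12.56 CPM at E13.5, and for Atp5l -17.94 CPM at E14.5 and 14.37 CPM at E13.5. In this form the difference was not tested; in the edgeR test of the change of the KO effect with stage, none of the 3 passed (adjusted p = 0.997 each).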

How the results depend on the processing

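No member was called in a KO comparison under any alternative but 1: without E14.5 KO replicate 1, 1 member (Ndufb11) was called lower averaged over the stages. Counts called higher with stage moved most. In KO hearts (1) DESeq2 called 7, no robust prior 2, the compared groups alone 0 and the fit without the pair of hearts low in macrophage markers 0; leaving out 1 library gave 0 to 7, with 4 without E14.5 WT replicate 7.2. In WT hearts (24) DESeq2 called 55, a Y-linked covariate 13, the compared groups alone 13, the fit without the pair 9 and that without litter 3 1; leaving out 1 library gave 0 to 36. Averaged (49), the fit without the pair called 26 and that without litter 3 22; leaving out 1 library gave 29 to 59, with 30 without E14.5 WT replicate 7.2. RLE size factors gave 1 in KO hearts, 23 in WT hearts and 49 averaged. Calls over all genes, in either direction, moved too. In KO hearts DESeq2 called 1822 genes, no robust prior 779, the compared groups alone 289 and the fit without the pair 130. In WT hearts DESeq2 called 2140, a Y-linked covariate 609, the compared groups alone 587, the fit without the pair 474 and that without litter 3 95. Leaving out 1 library gave 66 to 1076 in KO hearts, 8 to 1081 in WT hearts and 2299 to 3681 averaged.

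With litter as a replicate block, 5 members were called in WT hearts and 15 averaged over the genotypes, and no member was called in a KO comparison. Of all genes, the blocked fit called 299 in WT hearts and 1684 averaged, in either direction. Each litter holds 1 stage, so blocked stage values set litter 2 against litter 1.

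Between genotypes, the log2 ratio of Cox6b2 over Cox6b1 (0.037) was -0.030 without the pair and -0.031 to 0.084 with 1 library left out. Cox4i2 over Cox4i1 (0.34) was 0.20 without the pair and 0.25 to 0.40 with 1 library left out, and passed at 0.40. With stage, Cox4i2 over Cox4i1 (0.26) was 0.18 to 0.33 with 1 library left out and passed in 3 of those fits, and passed at 0.24 without the pair; Cox6b2 over Cox6b1 did not pass without litter 3 (-0.31). Genes that changed sign, none of them called, were in averaged KO against WT Ndufa4l2 (-0.039 without the pair), Uqcrq (-0.035 without litter 3; -0.052 to 0.055 with 1 library left out) and Atp5g1 (-0.012 to 0.090 with 1 left out), and at E14.5 Cox4i2 (-0.038 without the pair; -0.038 to 0.28 with 1 left out) and Atp5g1 (-0.13 to 0.077 with 1 left out, 0.015 without E14.5 WT replicate 7.2). The cause was not tested.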
